A study of Mus musculus with 9 samples.

Results

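The genes described here carry pyruvate into the mitochondrion and turn it into acetyl-CoA. The list holds the 3 genes of the E1 part of pyruvate dehydrogenase (Pdha1, Pdha2 and Pdhb). Also included are the genes of the enzyme's E2 and E3 parts (Dlat and Dld) and 3 of its kinases (Pdk1, Pdk2 and Pdk3). The rest are Mpc1 and Mpc2 of the mitochondrial pyruvate carrier. These genes were chosen by name for their role in this step, with earlier results of these data known. They are 10 of the 55414 genes listed in the counts from mouse round spermatids (RS). All 10 held at least 10 reads over the 9 libraries and were tested. RS had been incubated for 24 h with vehicle, with 24 mM oxamate, or with 24 mM oxamate and 0.3 mM octyl-L2HG, with 3 libraries in each group. Oxamate is an inhibitor of lactate dehydrogenase that resembles pyruvate, and octyl-L2HG is an ester of L-2-hydroxyglutarate that can cross the cell membrane. DMSO was at 0.15% in every group, and the medium of every group held 5 mM sodium pyruvate, 5 mM sodium lactate and 2 mM glutamine. There was no group with octyl-L2HG alone, so each value for both compounds includes oxamate. The labels give the cells as wild type from testis. By the study's methods they were sorted by FACS from adult mice on a C57Bl/6 background, in which Stra8-iCre switches on a tdTomato reporter in the germ line. Vehicle libraries carry the numbers 1 to 3 in the labels, oxamate libraries 4 to 6, and libraries with both compounds 7 to 9. Neither the labels nor the methods say whether they came from separate animals, so p-values measure the spread between these libraries, which may be technical.

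Pyruvate crosses the inner mitochondrial membrane through a carrier that MPC1 and MPC2 can form. In the matrix the pyruvate dehydrogenase complex converts it in sequence: E1, made of alpha and beta subunits, removes carbon dioxide, E2 passes the acetyl group to coenzyme A on a lipoyl arm, and E3 re-oxidizes that arm. Pyruvate dehydrogenase kinases phosphorylate E1 alpha and switch the complex off, and phosphatases switch it on again. The usual E1 alpha gene, Pdha1, lies on the X chromosome, which is silenced in meiosis and stays largely repressed in RS. Pdha2 is a retrocopy of it without introns on an autosome, and it is known for its expression in the testis. Spermatogenic cells are known to use lactate and pyruvate as fuels, and lactate dehydrogenase, the target of oxamate, joins both.

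The depth was between 32339533 and 39888396 counted reads per library. The genes fixed as markers of RS held a summed 1721 to 1813 CPM (counts scaled to the size of the library) in the 9 libraries, against at most 7.32 CPM for the spermatogonial list, 4.48 for the macrophage list and 1.42 for the Sertoli cell list. Spermatocyte markers held 197 to 225 CPM, and 1 of these 8 genes rose with oxamate against vehicle, where 3.97% of all genes tested rose. Of the 7 spermatogonial markers, 1 fell with both compounds against vehicle, where 10.6% of all genes tested fell. Markers of elongating spermatids, the stage that follows RS, held 1783 to 1864 CPM in vehicle, 1614 to 1661 in oxamate and 1354 to 1409 with both compounds, and none of its 7 genes was at 0. Of the 7, 4 fell with oxamate against vehicle, 6 with both compounds against oxamate and 7 with both against vehicle by edgeR, where 1.22%, 8.06% and 10.6% of all genes tested fell. Of the 8 RS markers, 1 fell with both compounds against oxamate, and 3 rose and 2 fell with both against vehicle. Over all genes tested, 8.06% fell in the first of these comparisons, and 7.48% rose and 10.6% fell in the other. The first 2 principal components held 49.3% and 19.9% of the variance. On them, oxamate libraries 5 and 6 were close to each other and library 4 was not. On the second, vehicle library 1 lay at 14.01, and vehicle libraries 2 and 3 at 4.37 and 1.03.

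Reads of Pdha1 and Pdha2 could be told apart, which the following sequences show. In the GENCODE M21 transcripts (GRCm38) the coding sequences of Pdha1 and Pdha2 are 1170 and 1173 bases long and share 75.6% of 1170 aligned bases, and the longest run found in both transcripts is 20 bases. Around that run, bases 254 to 343 of the Pdha1 coding sequence align without a gap to bases 257 to 346 of Pdha2, and the capitals mark the 11 of 90 bases that differ.
Pdha1: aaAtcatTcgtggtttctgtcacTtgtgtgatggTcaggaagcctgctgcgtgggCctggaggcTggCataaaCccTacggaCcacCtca
Pdha2: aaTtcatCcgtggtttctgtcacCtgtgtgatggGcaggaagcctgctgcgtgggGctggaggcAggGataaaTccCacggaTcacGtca
The kinase genes are further apart, with 66.2% to 68.5% shared coding bases between pairs and a longest shared run of 19 bases, between Pdk1 and Pdk2.

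Nearly all E1 alpha reads in RS came from the retrogene. Pdha2 held 20516 counts in the vehicle libraries together, 19987 with oxamate and 13747 with both compounds. Pdha1 held 3, 0 and 4 counts in the vehicle libraries, 1, 3 and 1 with oxamate, and 0, 1 and 1 with both compounds. Over all 9 libraries that is 14 of 54264 E1 alpha counts, or 0.0258% (95% Wilson interval 0.0154% to 0.0433%, which covers counting error only). Per kilobase of transcript the share of Pdha2 was 99.972% ± 0.0249 (SD, n = 3) in vehicle, 99.979% ± 0.0137 with oxamate and 99.988% ± 0.0103 with both compounds. The few Pdha1 counts allow no statement on a difference between groups, and no fold is given for it. Among the 854 X-linked genes tested with a length, Pdha1 ranked 770th by its vehicle level per length, whereas Pdk3, the X-linked kinase gene, ranked 15th.

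Levels between genes were compared per transcript length as RPKM, reads scaled to transcript length and to library size (by edgeR's TMM factors), with the length of the longest coding transcript of GENCODE M21. Where RS use a shorter transcript, these levels are too low. In vehicle the order was Mpc2 with 291 ± 15.8 RPKM (SD, n = 3), Pdk2 with 137 ± 4.88, Pdha2 with 74.1 ± 1.5, Pdhb with 66.8 ± 2.21, Pdk3 with 48.1 ± 1.33, Dld with 39 ± 2.23, Dlat with 34.2 ± 1.63 and Mpc1 with 20.8 ± 3.13. Neighbours in this order did not overlap between their vehicle libraries. Mpc2 exceeded the level of 99.1% of the 25027 genes with a length, and Mpc1 that of 85.8%. Pdk1 and Pdha1 followed far below, at 0.026 ± 0.0115 and 0.0205 ± 0.0184 RPKM, and these last levels overlapped. Pdk1, a kinase known for its induction in hypoxia, held 3 to 8 counts in each library, so no fold is given for it either. Of the kinase genes, only Pdk2 and Pdk3 held more than 8 counts in a library. By chromosome, Mpc2 lies on 1, Pdk1 on 2, Pdha2 on 3, Dlat on 9, Pdk2 on 11, Dld on 12, Pdhb on 14, Mpc1 on 17, and Pdha1 and Pdk3 on X.

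**Figure D1:**
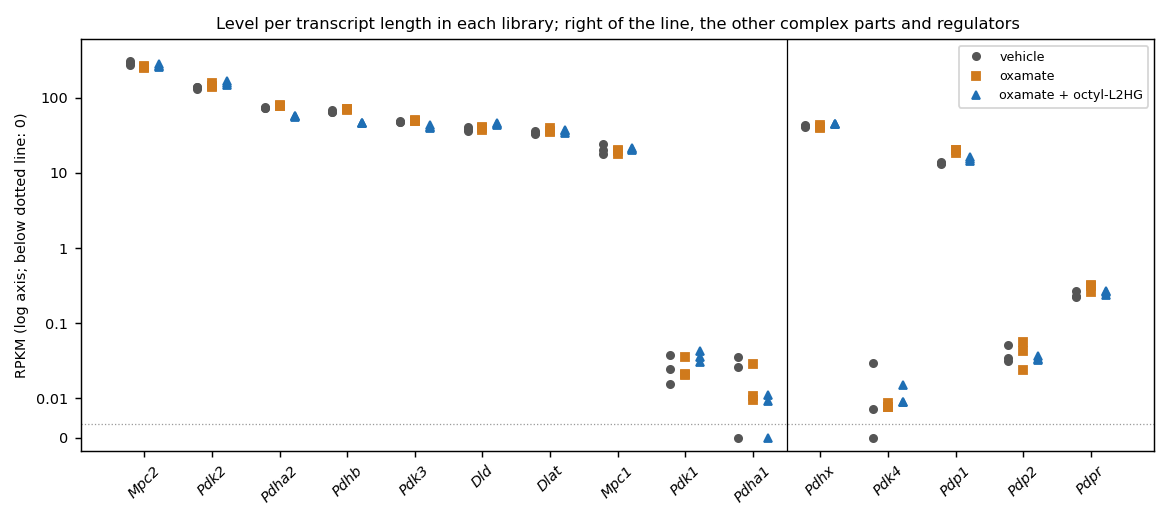
Level per transcript length (RPKM, log axis) of the 10 genes, left of the line, and of the other parts and regulators of the complex, right of it. Each point is 1 library of vehicle (circles), oxamate (squares) or oxamate with octyl-L2HG (triangles), and values of 0 are drawn below the dotted line. Pdha1 and Pdk1 lie below 0.05 RPKM in all libraries, and the other 8 of the 10 genes above 17.

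Counts were tested with edgeR (quasi-likelihood F test) over 25128 genes, and a gene was called, as having risen or fallen, at a Benjamini-Hochberg adjusted p under 0.05. Of the 10 genes, oxamate against vehicle gave no call in either direction, where 3.97% of all genes tested rose and 1.22% fell. At an unadjusted p under 0.05 the count was 1 (Mpc2, lower), and DESeq2 also gave 0. With both compounds against oxamate 3 of 10 fell, where 8.06% of all genes fell, and 0 rose, where 3.18% of all genes rose. Dld, with 0.19 on the log2 scale, was the 1 gene on the higher side at an unadjusted p under 0.05, and it was called in 4 of 16 alternatives, DESeq2 among them. With both compounds against vehicle 3 of 10 fell and 2 rose, where 10.6% of all genes fell and 7.48% rose. Any difference among the 3 groups was called for 3 of 10, Pdha2, Pdhb and Pdk3, against 19.8% of all genes. The comparisons share libraries and are not independent of each other. The median log2 fold change of the 8 genes with ample counts was 0.059 with oxamate against vehicle, 0.0053 with both compounds against oxamate and -0.066 with both against vehicle, and over all genes tested it was -0.011, -0.038 and -0.045. Over the 10715 genes whose normalized counts averaged 100 or more, as those of the 8 did, it was 0.0098, 0.01 and 0.032. Of these, 20.9% had a higher log2 fold change than Dld with both compounds against vehicle, and 21.8% a higher one than Pdk2. The shares of calls given above are over all 25128 genes tested, and none was computed for these 10715.

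Both expressed E1 genes fell when octyl-L2HG was added to oxamate. Pdha2, E1 alpha, held 6410, 6146 and 6243 normalized counts in the vehicle libraries, 6820, 6574 and 6575 with oxamate, and 4854, 4933 and 4817 with both compounds. All 3 libraries with both compounds lay below the other 6, and the oxamate libraries lay above the vehicle libraries. With both compounds against oxamate the log2 fold change was -0.48 (SE 0.061, a change of -28.2%, 95% interval -34.2% to -21.6%; adjusted p = 2.88e-05 by edgeR). Against vehicle it was -0.39 (SE 0.061, adjusted p = 9.94e-05 by edgeR). For oxamate against vehicle the value was 0.092 (SE 0.060), which was not called (adjusted p = 0.481 by edgeR).

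Pdhb, E1 beta, followed the same order of groups. It held 3767, 3524 and 3602 normalized counts in vehicle, 3807, 3909 and 3797 with oxamate, and 2582, 2525 and 2541 with both compounds. Again the libraries with both compounds lay below the other 6, while those of oxamate lay just above vehicle. Pdhb had the largest fall of the 8 genes with ample counts. The log2 fold change was -0.62 with both compounds against oxamate (SE 0.063, a change of -34.8%, 95% interval -40.4% to -28.5%; adjusted p = 2.22e-06 by edgeR) and -0.53 against vehicle (SE 0.063, adjusted p = 4.38e-06 by edgeR). Between oxamate and vehicle the value was 0.084 (SE 0.063, adjusted p = 0.545 by edgeR). Among the 10715 genes whose normalized counts averaged 100 or more, 2.66% had a lower log2 fold change than Pdhb with both compounds against oxamate. For Pdha2 that share was 5.24%. With both compounds against vehicle the shares were 5.35% for Pdhb and 8.88% for Pdha2. With both compounds, the falls of Pdha2 and Pdhb went together with the lower level of the elongating spermatid markers given above. Those markers were also lower with oxamate against vehicle, where Pdha2 and Pdhb lay above vehicle and were not called. The part of the marker change in the falls was not tested. In bulk RNA, fewer cells of a type and less RNA per cell cannot be told apart.

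**Figure D2:**
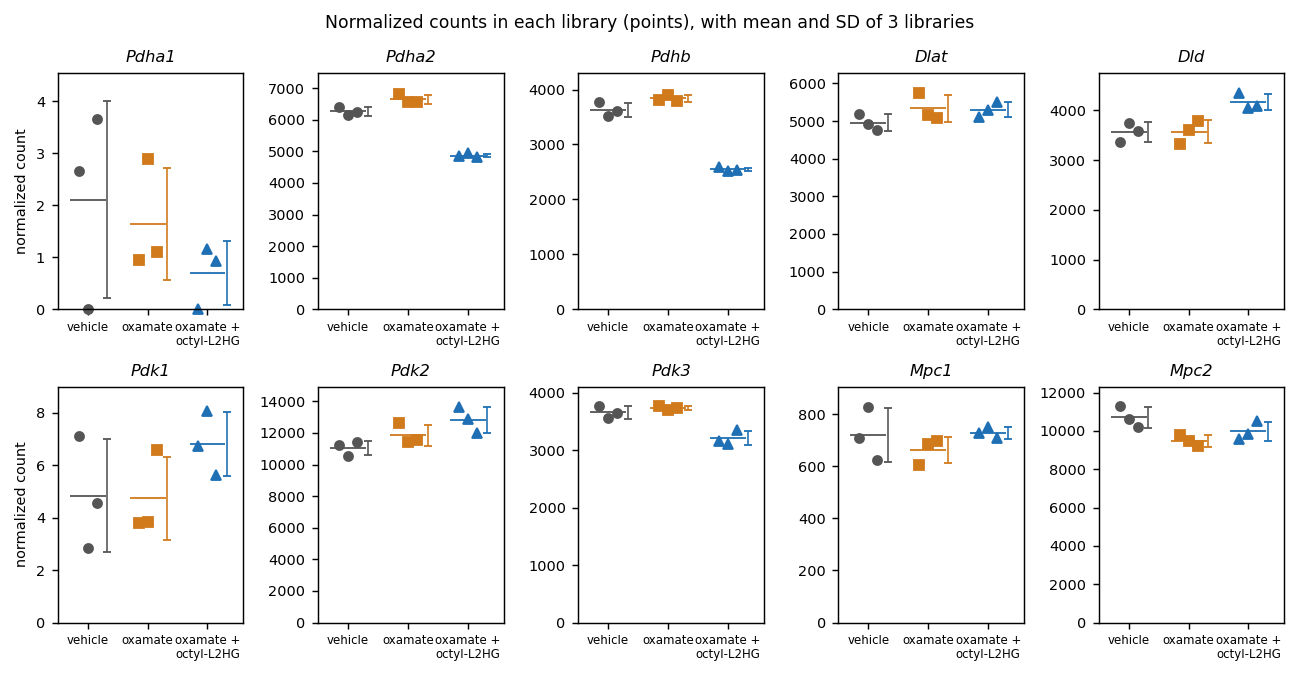
Normalized counts (counts over the size factor the authors used) of the 10 genes in each of the 9 libraries, with the mean (line) and SD (bar) of 3 libraries per group. The axes start at 0 and differ between genes. Pdha2, Pdhb and Pdk3 are lowest in all 3 libraries with both compounds, and Pdha1 and Pdk1 stay at or below 8.07 normalized counts.

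Of Pdha2, Pdhb and Pdk3, the genes that fell, Pdha2 stands apart in the sequence before its start. Their promoters, as the 250 bases before the RefSeq start on GRCm38.p6, are shown on the gene's strand to compare them, and the capitals mark matches to 4 motifs searched on both strands, the TATA box (TATAAA), the GC box (GGGCGG), the CCAAT box (CCAAT) and the cAMP response element (TGACGTCA).
Pdha2 (chr3:141212356-141212605, minus strand): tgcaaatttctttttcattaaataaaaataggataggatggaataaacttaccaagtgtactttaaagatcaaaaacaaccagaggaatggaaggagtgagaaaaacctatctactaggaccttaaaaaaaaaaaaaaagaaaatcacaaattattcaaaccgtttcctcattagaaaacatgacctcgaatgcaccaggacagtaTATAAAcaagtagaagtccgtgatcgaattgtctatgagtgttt
Pdhb (chr14:8172993-8173242, minus strand): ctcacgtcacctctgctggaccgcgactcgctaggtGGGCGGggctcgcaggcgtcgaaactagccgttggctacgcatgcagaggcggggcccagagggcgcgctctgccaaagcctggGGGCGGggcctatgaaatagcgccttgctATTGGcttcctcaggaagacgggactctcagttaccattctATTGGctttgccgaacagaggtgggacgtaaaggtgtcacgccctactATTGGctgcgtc
Pdk3 (chrX:93832151-93832400, minus strand): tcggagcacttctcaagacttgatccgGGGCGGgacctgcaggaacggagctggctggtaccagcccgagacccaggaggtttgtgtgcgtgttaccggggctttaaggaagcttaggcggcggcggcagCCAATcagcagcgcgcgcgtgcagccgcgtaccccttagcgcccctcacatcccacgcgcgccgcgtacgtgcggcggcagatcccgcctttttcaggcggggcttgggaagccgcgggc
The Pdha2 window is 31.6% G and C, a share that 2.16% of the promoters in the table fall below, and holds 4 CpG and a TATA box match whose first base lies at -44 from the start. Pdhb and Pdk3 are 61.6% and 67.6% G and C, with 20 and 29 CpG, and neither holds a TATA box match. Pdhb holds 2 GC box matches, at -214 and -130, and 3 CCAAT matches on the opposite strand, at -101, -60 and -12. Pdk3 holds 1 of each, at -223 and -120. None of the 3 holds the full cAMP response element. Of 32851 such windows in the table, 12.4% hold the TATA box, 32.7% the GC box, 33.8% the CCAAT box and 1.55% the cAMP response element. All 10 genes had an entry. Among genes that did not fall, the Mpc2 window is 67.2% G and C, with 2 GC box matches and 1 CCAAT match. The Dld window is 43.6% G and C, with 1 CCAAT match and no TATA box match. These matches describe letters only, and a link to the falls was not tested.

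Neither the E2 nor the E3 gene was called lower. Dlat, the E2 acetyltransferase, held 5196, 4922 and 4761 normalized counts in vehicle, 5757, 5174 and 5080 with oxamate, and 5106, 5299 and 5500 with both compounds. The 3 groups overlapped. Its log2 fold change with both compounds was -0.036 against oxamate (95% interval -0.18 to 0.11, adjusted p = 0.824 by edgeR) and 0.075 against vehicle (95% interval -0.070 to 0.22, adjusted p = 0.522 by edgeR). The sign of the first turned without oxamate library 4, to 0.028, and the other ranged from 0.043 to 0.11 with 1 library left out.

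Dld, the E3 dihydrolipoamide dehydrogenase that other complexes of the matrix also use, was highest with both compounds. It held 3357, 3741 and 3594 normalized counts in vehicle, 3333, 3602 and 3781 with oxamate, and 4344, 4045 and 4095 with both compounds, all 3 of which lay above the other 6. It rose against vehicle by 0.20 on the log2 scale (SE 0.068, adjusted p = 0.0441 by edgeR), and the value against oxamate, 0.19 (SE 0.069), was not called (adjusted p = 0.0717 by edgeR). The call against vehicle was lost without vehicle library 1 (log2 fold change 0.16), vehicle library 3 (0.22), oxamate library 5 (0.20) or library 7 (0.17), 8 (0.22) or 9 (0.21) of both compounds, with adjusted p between 0.061 and 0.172. It was also lost with libraries scaled by their total counts (0.14, adjusted p = 0.187) and with a correction for transcript length (0.18, adjusted p = 0.0833). The value against oxamate was called by DESeq2 (0.22, adjusted p = 0.021), and by edgeR with DESeq2 size factors (0.22, adjusted p = 0.0429), with no filter on low counts (0.24, adjusted p = 0.0277) and with edgeR's own filter (0.21, adjusted p = 0.0394).

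Of the kinase genes, Pdk3 was lower with both compounds. Pdk3, the X-linked kinase, held 3769, 3556 and 3644 normalized counts in vehicle, 3769, 3700 and 3726 with oxamate, and 3157, 3115 and 3347 with both compounds. The libraries with both compounds lay below the other 6, and vehicle and oxamate overlapped. Among the 10715 genes whose normalized counts averaged 100 or more, 15.8% had a lower log2 fold change than Pdk3 with both compounds against oxamate. Against vehicle that share was 18%. Pdk3 fell by 0.24 on the log2 scale with both compounds against oxamate (SE 0.064, a change of -15.6%, adjusted p = 0.0157 by edgeR) and by 0.21 against vehicle (SE 0.064, adjusted p = 0.0246 by edgeR). The call against oxamate was lost without oxamate library 5 (log2 fold change -0.25) or library 7 (-0.23) or 8 (-0.22) of both compounds. The call against vehicle was lost without vehicle library 1 (-0.19) or 3 (-0.20), or library 7 (-0.20) or 8 (-0.19). Over these 7 fits the adjusted p lay between 0.0567 and 0.131. With no filter on low counts neither was called, at -0.20 against oxamate (adjusted p = 0.104) and -0.17 against vehicle (adjusted p = 0.196).

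Pdk2, the more abundant kinase gene, was higher with both compounds than with vehicle. It held 11243, 10529 and 11399 normalized counts in vehicle, 12612, 11400 and 11567 with oxamate, and 13655, 12888 and 11998 with both compounds. All libraries with both compounds exceeded all vehicle libraries, and they overlapped with oxamate. The oxamate libraries also lay above the vehicle libraries, the nearest at 11400 against 11399. With oxamate against vehicle the log2 fold change was 0.11 (SE 0.066), which was not called (adjusted p = 0.449 by edgeR). With both compounds Pdk2 rose by 0.19 on the log2 scale against vehicle (SE 0.066, a change of 14.4%, adjusted p = 0.0449 by edgeR). Against oxamate the value was 0.089 (SE 0.066, adjusted p = 0.471 by edgeR). With 1 library left out the latter ranged from 0.046 without library 7 of both compounds to 0.14 without oxamate library 4, with no call. The call against vehicle was lost without vehicle library 1 (0.21), 2 (0.17) or 3 (0.23), oxamate library 5 (0.19), or library 7 (0.15) or 8 (0.19) of both compounds, with adjusted p between 0.0526 and 0.207, and with scaling by total counts (0.13, adjusted p = 0.155). Pdk4, a kinase gene known for its response to fasting, held 0 to 4 counts per library.

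On the side of the phosphatases, Pdp1 was the expressed gene. Of the list of 5 other parts and regulators of the complex, it was the 1 gene called with oxamate against vehicle (higher) and with both compounds against oxamate (lower), and 0 were called with both against vehicle by edgeR, where 1 passed an unadjusted p under 0.05 and DESeq2 called 1. That is 20% of the 5 in each of the first comparisons, where 3.97% of all genes rose and 8.06% fell, and each share is 1 gene. It encodes the catalytic subunit that removes phosphate from E1 alpha. Pdp1 held 2017, 2011 and 2127 normalized counts in vehicle, 2718, 3061 and 3085 with oxamate, and 2505, 2242 and 2365 with both compounds, so that the groups did not overlap. It rose with oxamate by 0.53 on the log2 scale (SE 0.070, a change of 44.4%, 95% interval 30.5% to 59.7%; adjusted p = 7.88e-05 by edgeR) and fell by 0.34 when octyl-L2HG was added (SE 0.070, adjusted p = 0.00267 by edgeR). With both compounds it lay 0.19 above vehicle (SE 0.071), which was not called (adjusted p = 0.0714 by edgeR) but was called in 6 of 16 alternatives. These were DESeq2 (0.21, adjusted p = 0.0333), DESeq2 size factors (0.21, adjusted p = 0.0465), no filter on low counts (0.23, adjusted p = 0.0307), edgeR's own filter (0.20, adjusted p = 0.0419), a fit of only the groups compared (0.20, adjusted p = 0.0144) and the fit without oxamate library 4 (0.19, adjusted p = 0.0126). Pdp2, the other catalytic subunit, held 5 to 12 counts per library. Pdpr, which regulates the phosphatase, held 39.1 to 56.2 normalized counts, and Pdhx, which anchors E3 to E2, held 3612 to 4106. Neither was called in any comparison.

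Mpc1 and Mpc2 were not called by edgeR with TMM scaling in the fit of all 9 libraries. Mpc2 held 11302, 10634 and 10215 normalized counts in vehicle, 9816, 9455 and 9202 with oxamate, and 9583, 9836 and 10512 with both compounds. The oxamate libraries lay below the vehicle libraries, and those with both compounds overlapped with each. Its log2 fold change with oxamate against vehicle was -0.17 (SE 0.066, 95% interval -0.31 to -0.034), with an adjusted p of 0.159 by edgeR. Without oxamate library 4 it was -0.20 and was called (adjusted p = 0.0289). With both compounds the value was 0.046 against oxamate (adjusted p = 0.746 by edgeR; 0.0018 to 0.078 with 1 library left out, lowest without library 9 and highest without library 7 of both compounds) and -0.13 against vehicle (adjusted p = 0.213 by edgeR). On total counts the latter was -0.19 and was called lower (adjusted p = 0.0456), while with the length correction it was 0.0051 (adjusted p = 0.968). Mpc1 held 707, 827 and 623 normalized counts in vehicle, 604, 683 and 696 with oxamate, and 726, 749 and 707 with both compounds. Its vehicle libraries spanned the values of the other 2 groups but for the lowest, and its log2 fold changes were -0.12 with oxamate against vehicle, 0.11 with both compounds against oxamate and -0.0064 with both against vehicle, with adjusted p of 0.583, 0.542 and 0.973 by edgeR. With 1 library left out the first ranged from -0.22 without vehicle library 3 to -0.00055 without vehicle library 2, and the value against oxamate from 0.055 without oxamate library 4 to 0.14 without oxamate library 6.

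**Figure D3:**
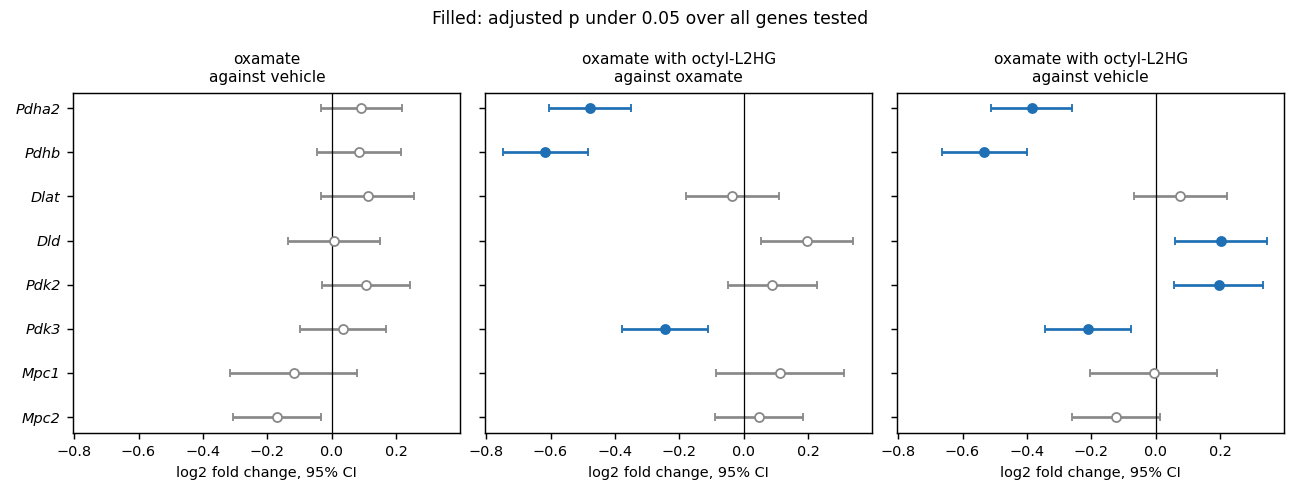
Log2 fold changes (points) with 95% confidence intervals (bars) of the 8 genes with ample counts in the 3 comparisons, with filled points for an adjusted p under 0.05 over all 25128 genes tested by edgeR. No point is filled for oxamate against vehicle, 3 are filled below 0 for both compounds against oxamate, and 3 below and 2 above 0 for both compounds against vehicle.

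The proportions between parts of the complex were compared within each library, where scaling between libraries drops out. The ratio of Pdhb to Dlat, E1 beta to E2, was 1.95 ± 0.0567 (SD, n = 3) in vehicle, 1.92 ± 0.139 with oxamate and 1.28 ± 0.0593 with both compounds, in RPKM. That of Pdha2 to Dlat was 2.17 ± 0.0706, 2.14 ± 0.0989 and 1.58 ± 0.0663. For both, the values with both compounds lay below all others, while vehicle and oxamate overlapped. The ratio of Pdha2 to Pdhb was 1.11 ± 0.0143 in vehicle, 1.12 ± 0.0353 with oxamate and 1.23 ± 0.025 with both compounds, and was highest in all 3 libraries of the last group. Dlat to Dld, E2 to E3, was 0.88 ± 0.0829, 0.947 ± 0.126 and 0.805 ± 0.056. With both compounds it lay below oxamate, by a margin under the rounding at the nearest libraries (0.847 in each), and overlapped with vehicle.

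Between the kinases, Pdk2 stood to Pdk3 at 2.85 ± 0.0855 in vehicle, 2.99 ± 0.138 with oxamate and 3.78 ± 0.362 with both compounds, with the last group above the other 6 libraries. Pdk2 and Pdk3 together stood to Pdp1 at 13.6 ± 0.451 in vehicle, 10.1 ± 1.18 with oxamate and 12.8 ± 0.616 with both compounds. The oxamate libraries lay below the others in that ratio, with 11.4, 9.37 and 9.41. Mpc2 to Mpc1 was 14.1 ± 1.82, 13.5 ± 1.5 and 12.9 ± 0.923, with overlapping groups. Over 21 comparisons of ratios, groups that did not overlap had p = 0.1 by an exact two-sided permutation test, which is the smallest that 3 against 3 libraries can give, so none can pass 0.05.

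**Figure D4:**
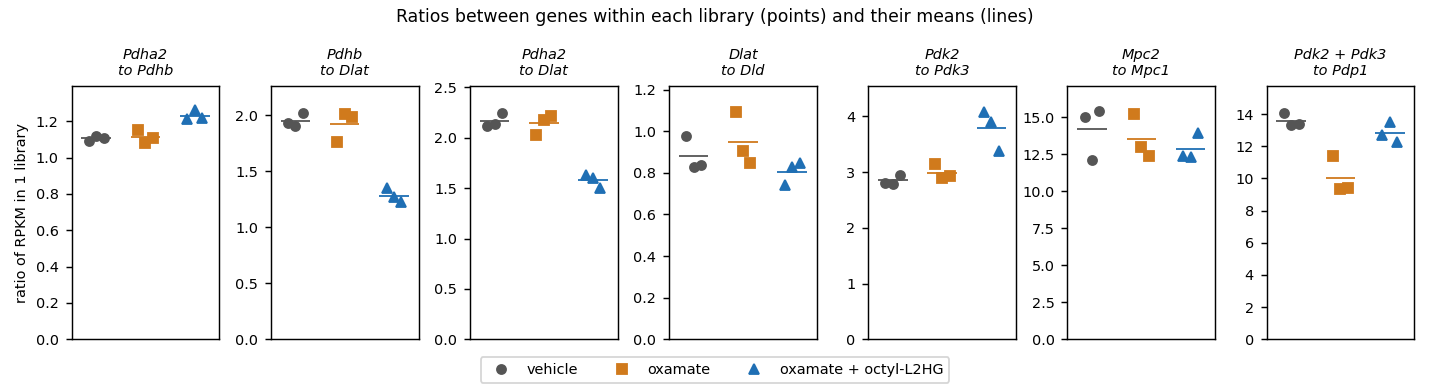
Ratios of RPKM between genes within each library (points, 3 per group) with their means (lines); the axes start at 0. Pdhb to Dlat is 1.95 in vehicle and 1.28 with both compounds, Pdk2 to Pdk3 is highest with both compounds at 3.78, and the kinases to Pdp1 are lowest with oxamate at 10.1.

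Genes around the complex were taken from lists of its lipoyl cofactor with its sister complexes, of the citric acid cycle and of other mitochondrial uses of pyruvate or acetyl-CoA. Of 18 lipoate and sister complex genes tested (the 19th, Ppm1k, held too few counts), 1 rose and 0 fell with oxamate, 2 rose and 1 fell with both compounds against oxamate, and 1 rose and 0 fell with both against vehicle by edgeR. At an unadjusted p under 0.05 the counts were 1 risen and 0 fallen with oxamate, 3 and 1 with both compounds against oxamate, and 4 and 1 with both against vehicle. By DESeq2 they were 1 and 0, 2 and 1, and 3 and 0. As shares of the 18 genes the edgeR counts were 5.56% risen with oxamate (3.97% of all genes tested), 11.1% risen and 5.56% fallen with both compounds against oxamate (3.18% and 8.06%), and 5.56% risen with both against vehicle (7.48%). Each share rests on 1 or 2 genes, and nothing is read from it about the list. Dlst, the E2 part of the 2-oxoglutarate dehydrogenase complex, rose by 0.39 on the log2 scale with both compounds against oxamate (SE 0.078, adjusted p = 0.00214 by edgeR) and by 0.55 against vehicle (SE 0.078, adjusted p = 3.27e-05 by edgeR). It held 2147 to 2267 normalized counts in vehicle, 2221 to 2804 with oxamate and 3225 to 3340 with both compounds. Lias, which makes the lipoyl group, rose by 0.24 against oxamate (adjusted p = 0.0212 by edgeR). That call was lost without oxamate library 5 (0.23) or 6 (0.23), or library 7 (0.23), 8 (0.26) or 9 (0.23) of both compounds, or on total counts (0.19, adjusted p = 0.0545).

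Iba57, which takes part in building the iron-sulfur clusters that lipoate synthesis needs, rose by 0.42 with oxamate (SE 0.11, adjusted p = 0.0272 by edgeR) and fell by 0.65 when octyl-L2HG was added (SE 0.11, adjusted p = 0.000709 by edgeR). It held 219 to 226 normalized counts in vehicle, 245 to 328 with oxamate and 176 to 211 with both compounds. The rise lost its call without vehicle library 1 (0.41), 2 (0.44) or 3 (0.41), or oxamate library 5 (0.34) or 6 (0.38), and also in a fit of only vehicle and oxamate (0.42, adjusted p = 0.0712) and with the length correction (0.35, adjusted p = 0.0863).

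Of 15 citric acid cycle genes, 0 were called with oxamate by edgeR, 1 by DESeq2, and 1 passed an unadjusted p under 0.05. With both compounds 1 rose and 1 fell against oxamate, and 2 rose and 2 fell against vehicle. That is 6.67% in each direction against oxamate, where 3.18% of all genes rose and 8.06% fell, and 13.3% in each direction against vehicle, where 7.48% rose and 10.6% fell. These counts are of 1 or 2 genes, and nothing is read from them about the list. Fh1, fumarase, fell by 0.34 against oxamate (SE 0.080, adjusted p = 0.00733 by edgeR) and by 0.49 against vehicle (SE 0.079, adjusted p = 0.000146 by edgeR), and the former call was lost without oxamate library 5 (-0.30) or library 7 of both compounds (-0.29). Idh3a, a subunit of NAD-dependent isocitrate dehydrogenase, rose by 0.35 and 0.31 in the same comparisons (adjusted p = 0.0208 and 0.0274 by edgeR). Its first call was lost without oxamate library 5 (0.34) or library 8 (0.36) or 9 (0.25) of both compounds, and the other without vehicle library 1 (0.30) or 2 (0.30), or library 8 (0.31) or 9 (0.21), or on total counts (0.25, adjusted p = 0.0872). Sdhb, the iron-sulfur subunit of succinate dehydrogenase, fell by 0.26 with both compounds against vehicle (adjusted p = 0.0367 by edgeR), where the values with oxamate against vehicle and with both against oxamate were -0.11 and -0.15 and were not called (adjusted p = 0.561 and 0.312 by edgeR). The call against vehicle was lost without vehicle library 1 (-0.18) or 2 (-0.28), or library 7 (-0.22), 8 (-0.28) or 9 (-0.28), or with the length correction (-0.15, adjusted p = 0.209). Mdh2, malate dehydrogenase, was the remaining gene called, named after its values were seen, and it rose by 0.25 with both compounds against vehicle (adjusted p = 0.0425 by edgeR). With oxamate alone it lay 0.28 above vehicle, which was not called (adjusted p = 0.0564 by edgeR), and with both compounds it differed from oxamate by -0.029 (adjusted p = 0.889 by edgeR). The call was lost without vehicle library 2 (0.23) or 3 (0.25), oxamate library 5 (0.25), or library 7 (0.23), 8 (0.27) or 9 (0.25), or on total counts (0.19, adjusted p = 0.126).

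Of 7 genes of other pyruvate or acetyl-CoA use, 0 were called with oxamate by edgeR or DESeq2, with 1 at an unadjusted p under 0.05, and 1 fell with both compounds in either comparison. That is 14.3% of the 7, where 8.06% of all genes fell against oxamate and 10.6% against vehicle, and the share is 1 gene. The gene was Acss1, mitochondrial acetyl-CoA synthetase, named after its values were seen. It held few counts, 18 to 26 in vehicle, 21 to 31 with oxamate and 6 to 9 with both compounds, and its log2 fold change was -1.74 against oxamate (SE 0.31, adjusted p = 0.000958 by edgeR) and -1.25 against vehicle (SE 0.33, adjusted p = 0.0108 by edgeR). The call against vehicle was lost without vehicle library 1 (-1.09) or library 9 of both compounds (-1.01).

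**Figure D5:**
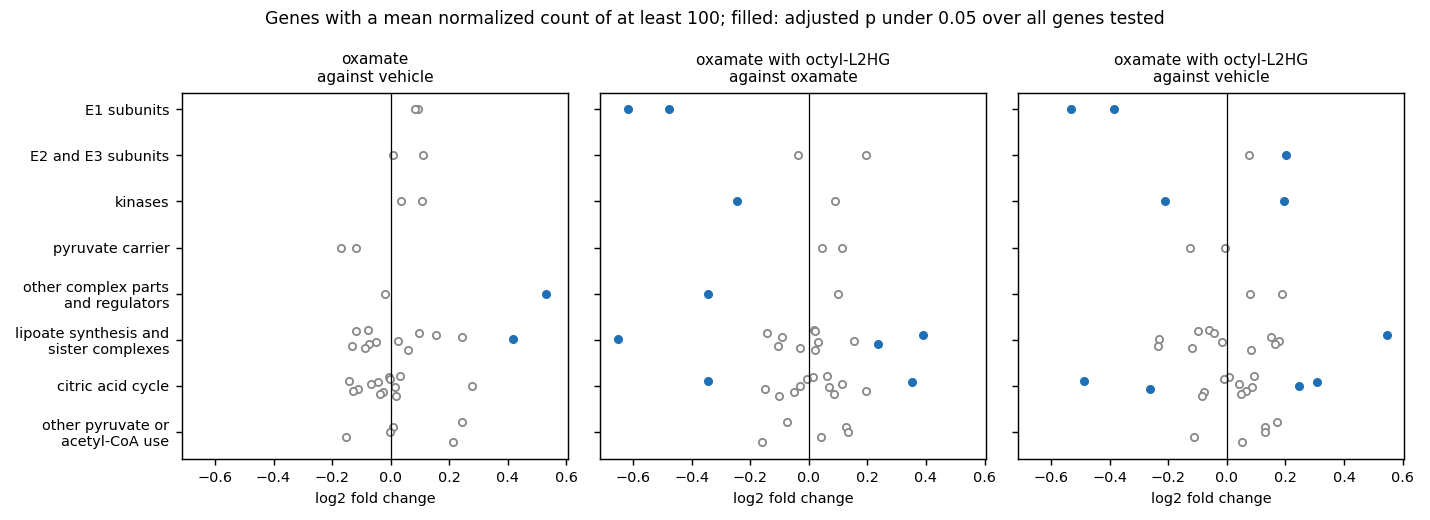
Log2 fold changes of the genes of each list whose normalized counts averaged 100 or more, 1 point per gene, in the 3 comparisons, with filled points for an adjusted p under 0.05 over all genes tested by edgeR. Both E1 genes lie below 0 with both compounds (-0.62 and -0.48 against oxamate), while the E2 and E3 genes lie at -0.036 and 0.19, and most genes of the wider lists stay unfilled.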

How the data were processed

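RNA of round spermatids was sequenced in 9 libraries with a polyA-selected stranded kit. Per the labels and methods, the authors trimmed reads and aligned these with TopHat2 2.1.1 to GRCm39 with an Ensembl annotation, and counted reads per gene with HTSeq 2.01. They deposited raw counts and a normalized signal, which is the count divided by 1 DESeq2 size factor per library. The strand setting of the counting is not given in the sources used here, so reads of overlapping antisense genes cannot be told apart. No column of values went unused.

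The 25128 genes with at least 10 counts in all entered edgeR 4.0.16 in R 4.3.3 (TMM, 1 quasi-likelihood fit of all 9 libraries with robust estimation, Benjamini-Hochberg adjustment, threshold 0.05). The fit was tested on simulated data. SE is the log2 fold change divided by the square root of F, and intervals use the t quantile of the fit. DESeq2 1.42.0 was an alternative, with other scalings, filters, thresholds, a transcript length correction and each library left out. Lengths came from GENCODE M21 for 99.6% of genes, matched by gene identifier, and promoters from RefSeq (GRCm38.p6).

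Members and lists were chosen with earlier results of these data known. Named were all members and regulators of the complex, and of the lipoate and citric acid cycle lists at most the 3 called genes per comparison with the largest change and a mean normalized count of at least 100.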

Additional observations from a re-analysis of the deposited data

How the results depend on the processing

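Of 779 alternative values for single genes, 681 kept their direction and side of the threshold. Pdha2 and Pdhb fell and were called in all 16 alternatives in both comparisons with both compounds, with log2 fold changes from -0.66 to -0.34. The count of the 10 genes called with oxamate against vehicle was 0 to 1 over the fits that each left out 1 library, 1 without oxamate library 4 (Mpc2). With both compounds against vehicle it was 2 to 5 when each was left out, 2 without vehicle library 1 or 3 or library 7 or 8 of both compounds, 3 without oxamate library 5, and 2 at a threshold of 0.01; where 2 were called they were Pdha2 and Pdhb. With both compounds against oxamate it was 2 to 4 over all alternatives. For any difference it was 5 by DESeq2, and 2 to 6 with 1 library left out, 6 without oxamate library 4. On total counts the 4 genes called with both compounds against vehicle, and for any difference, were Pdha2, Pdhb, Pdk3 and Mpc2.

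Signs that turned were of values that were not called. Dlat against oxamate became 0.0092 with no filter. Dld with oxamate against vehicle became -0.011 on total counts and -0.028 with the length correction, and -0.034 to 0.050 with libraries left out. Mpc1 with both compounds against vehicle became 0.016 by DESeq2 and with its size factors, 0.039 with no filter, 0.0072 with edgeR's own filter, 0.010 with only the groups compared, 0.13 with the length correction, and -0.088 to 0.11 with libraries left out. Mpc2 in the same comparison became 0.0051 with the length correction, Pdpr -0.0033, and Pdp2 with oxamate -0.022. With libraries left out, Dlat against oxamate ranged from -0.075 to 0.028, Pdhx with oxamate from -0.062 to 0.011, and Pdp2 from -0.25 to 0.36 with oxamate, -0.54 to 0.064 against oxamate and -0.31 to 0.048 against vehicle. The causes were not tested. No paired analysis was possible because the library numbers 1 to 9 are not shared between groups. Depth limits Pdha1, Pdk1, Pdk4 and Pdp2, with at most 12 counts per library.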
